A study of Mus musculus with 6 samples.

Results

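The genes described here are 10 regulators and markers of undifferentiated spermatogonia and of the progenitors that leave the stem cell state: Neurog3, Sox3, Zbtb16, Sall4, Nanos3, Lin28a, Taf4b, Utf1, Pax7 and Upp1. They were taken by name from the 24495 gene symbols of a count table, and all 10 were present. The table holds RNA-seq counts from mouse spermatogonial stem cells, which sustain sperm production in the testis, cultured from DBA2 testes of postnatal days 5 to 8. The compared cultures received 2 uM EPZ5676 (pinometostat), an inhibitor of the histone H3 lysine 79 methyltransferase DOT1L, or 0.2% ethanol as the control, each for 2 weeks. Each group had 3 libraries numbered 1 to 3, which the series calls biological triplicates; the labels do not say whether a number marks a shared culture, animal or day, so p-values measure the spread between these libraries. RNA was taken from whole cultures, in which fewer cells of a type and less RNA per cell cannot be told apart.

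Spermatogonial stem cells divide to renew themselves or to form chains of progenitors, and the progenitors later respond to retinoic acid and begin to differentiate. ZBTB16 (PLZF) and SALL4 are zinc finger transcription factors of the undifferentiated pool, NANOS3 and LIN28A are RNA-binding proteins, and NEUROG3 and SOX3 mark and act in progenitors on their way to differentiation. PAX7 and UTF1 mark subsets of the undifferentiated pool in the mouse testis. The question asked of these genes was whether they differed between the inhibited and the control cultures, and how much they varied between libraries of the same kind.

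No member passed the test for EPZ5676 against ethanol, either without the replicate number as a block, where 0% of the genes tested passed, or with it, where 0.653% did. With the replicate number 6 of the 10 differed, against 11.9% of all genes tested. Neurog3 had the highest fold change: 1.68-fold higher under EPZ5676, with a 95% interval of 0.485 to 5.81, and higher in all 3 pairs of same-numbered libraries. It also varied most between libraries of the same treatment, by 8.48-fold among the EPZ5676 and 6.81-fold among the ethanol libraries. Upp1 and Lin28a were the members with lower levels in EPZ5676 in every pair, with ratios of 0.795 to 0.963. How many of all genes tested went the same way in every pair was not counted. Levels are TMM-normalised counts scaled to the library total and given as CPM, and the test was edgeR's quasi-likelihood test, adjusted by Benjamini and Hochberg's method over the 14855 symbols with enough counts, at a threshold of 0.05. All 10 members had enough counts to be tested.

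The cells carried the RNA of germ cells. Summed over 9 pan germ cell genes (among them Ddx4 and Dazl, which encode germline RNA-binding proteins), levels were 4964 to 5453 CPM in the EPZ5676 libraries and 4987 to 5288 CPM in the ethanol libraries. Library totals ran from 17784332 to 54645903 counts, so that 1 count was worth 0.0181 to 0.0560 CPM. The libraries numbered 2 stood apart on the first principal component, which held 48.7% of the variance, at 25.1 under EPZ5676 and 39.6 under ethanol, against -18.0 to -13.5 in the other 4. Summed fibroblast markers were also higher there: the 14 genes came to 1767 CPM under EPZ5676 and 2286 CPM under ethanol in replicate 2, against 1332 to 1449 CPM in replicates 1 and 3. Replicate 2 was the highest library for 9 of the 14 genes under EPZ5676 and 13 under ethanol; collagen genes and Sparc were high in both, whereas Dcn, at 16.4 CPM under EPZ5676 in replicate 2, was below the 19.4 and 27.9 CPM of EPZ5676 replicates 1 and 3. Dot1l itself was at 243 ± 40.4 CPM under EPZ5676 and 202 ± 3.92 CPM under ethanol (SD, n = 3 each), with an adjusted p = 0.668.

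Of the other markers, 8 muscle satellite cell and myoblast genes summed to 29.0 to 44.7 CPM under EPZ5676 and 26.0 to 38.6 CPM under ethanol. Myf5, a defining factor of myoblasts, was the only 1 of the 8 with 0 counts in all 6 libraries. Myod1, at 0 to 11 counts per library, and Pax3, at 1 to 8, also had few. Myog, Acta1 and Vcam1 were at 0.840 to 2.19, 0.972 to 4.14 and 3.10 to 7.45 CPM. Cdh15, by contrast, was at 11.9 to 23.4 CPM and Des at 4.79 to 10.1 CPM. The 8 pluripotent cell genes summed to 154 to 200 CPM under EPZ5676 and 139 to 191 CPM under ethanol. Klf4, at 62.0 to 90.7 CPM, and Pou5f1, at 37.5 to 53.5 CPM, were the highest of them, whereas Nanog had 5 to 33 counts. The 9 Sertoli cell genes in the table summed to 32.1 to 40.3 and 33.6 to 47.1 CPM under EPZ5676 and ethanol, and 9 lymphoid and myeloid genes to 11.01 to 15.48 and 11.77 to 15.46 CPM. The 7 neural progenitor genes summed to 89.5 to 107 CPM under EPZ5676 and 127 to 157 CPM under ethanol, most of it from Nes, an intermediate filament gene. Nes was at 97.8, 84.2 and 102 CPM in EPZ5676 replicates 1, 2 and 3 and at 127, 123 and 152 CPM in ethanol replicates 1, 2 and 3. It was not called without the replicate block (adjusted p = 0.499) and was lower with it (0.0257). The part of these other cell types in the members' levels was not tested.

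The start regions of 3 members are shown because each of them differed with the replicate number and has a single start entry in RefSeq. Promoter entries were used for 6 of the 10 genes, and entries on 1 chromosome were left out of the search. Each sequence runs 5′ to 3′ from 250 bases before to 50 bases after the annotated start, on GRCm38.p6 (RefSeq), and was matched by gene symbol; the counts themselves were made on mm9, and no coordinate was carried between the builds. Capitals mark the letters CANNTG, the E-box that proteins of the basic helix-loop-helix family such as NEUROG3 bind.
Neurog3, chr10:62132840-62133139, plus strand: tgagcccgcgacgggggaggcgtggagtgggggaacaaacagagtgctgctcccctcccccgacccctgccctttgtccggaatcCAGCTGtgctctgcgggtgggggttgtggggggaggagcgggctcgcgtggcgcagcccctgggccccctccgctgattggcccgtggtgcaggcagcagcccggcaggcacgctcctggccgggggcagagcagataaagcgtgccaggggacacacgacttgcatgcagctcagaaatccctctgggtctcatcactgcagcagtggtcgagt
Nanos3, chr8:84176503-84176802, minus strand: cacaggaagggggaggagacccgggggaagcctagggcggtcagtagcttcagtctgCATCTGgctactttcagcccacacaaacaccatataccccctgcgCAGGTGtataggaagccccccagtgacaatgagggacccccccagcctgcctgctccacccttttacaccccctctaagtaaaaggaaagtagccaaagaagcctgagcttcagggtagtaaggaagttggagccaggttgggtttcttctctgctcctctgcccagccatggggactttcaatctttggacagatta
Lin28a, chr4:134018767-134019066, minus strand: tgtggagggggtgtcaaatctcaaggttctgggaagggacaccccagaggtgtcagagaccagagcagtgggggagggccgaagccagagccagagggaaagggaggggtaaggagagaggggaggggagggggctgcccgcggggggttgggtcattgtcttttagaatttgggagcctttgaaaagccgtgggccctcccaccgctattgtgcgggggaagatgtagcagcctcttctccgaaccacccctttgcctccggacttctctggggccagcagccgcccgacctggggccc
The Neurog3 window held 1 E-box, the Nanos3 window 2 and the Lin28a window 0. Of 32851 RefSeq windows of this length, 72.3% held at least 1, so a match is common. The letters AGGTCA, a half-site bound by retinoic acid receptors, were searched on both strands, were in 16.3% of those windows and in 0 of these 3. The windows were 68.3%, 55.3% and 63.3% G or C for Neurog3, Nanos3 and Lin28a. A match describes the letters and is not evidence of binding.

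Without pairing the libraries by number, 0 members passed and their adjusted p ran from 0.806 to 0.978. The same fit called 0 of all 14855 genes, or 0%, with 1101 at an unadjusted p under 0.05 (0 of them members). Same-numbered libraries deviated together from their group means, so the numbers were treated as pairs, although replicates 1 and 3 also did so across numbers. With the number as a block 97 genes were called, 48 higher and 49 lower. That is 0.653% of the genes tested. With the block, too, 0 members passed, and their adjusted p ran from 0.0637 to 0.963. At an unadjusted p under 0.05 the blocked fit gave 3 members, Neurog3 higher and Upp1 and Lin28a lower, against 18.5% of all genes tested. Over the 10 members the unblocked log2 fold changes had a median of 0.05, against -0.01 over all genes tested, with 6 members positive and 4 negative. In 0 members did the EPZ5676 and ethanol libraries lie wholly apart, against 14.9% of all genes tested.

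**Figure D1:**
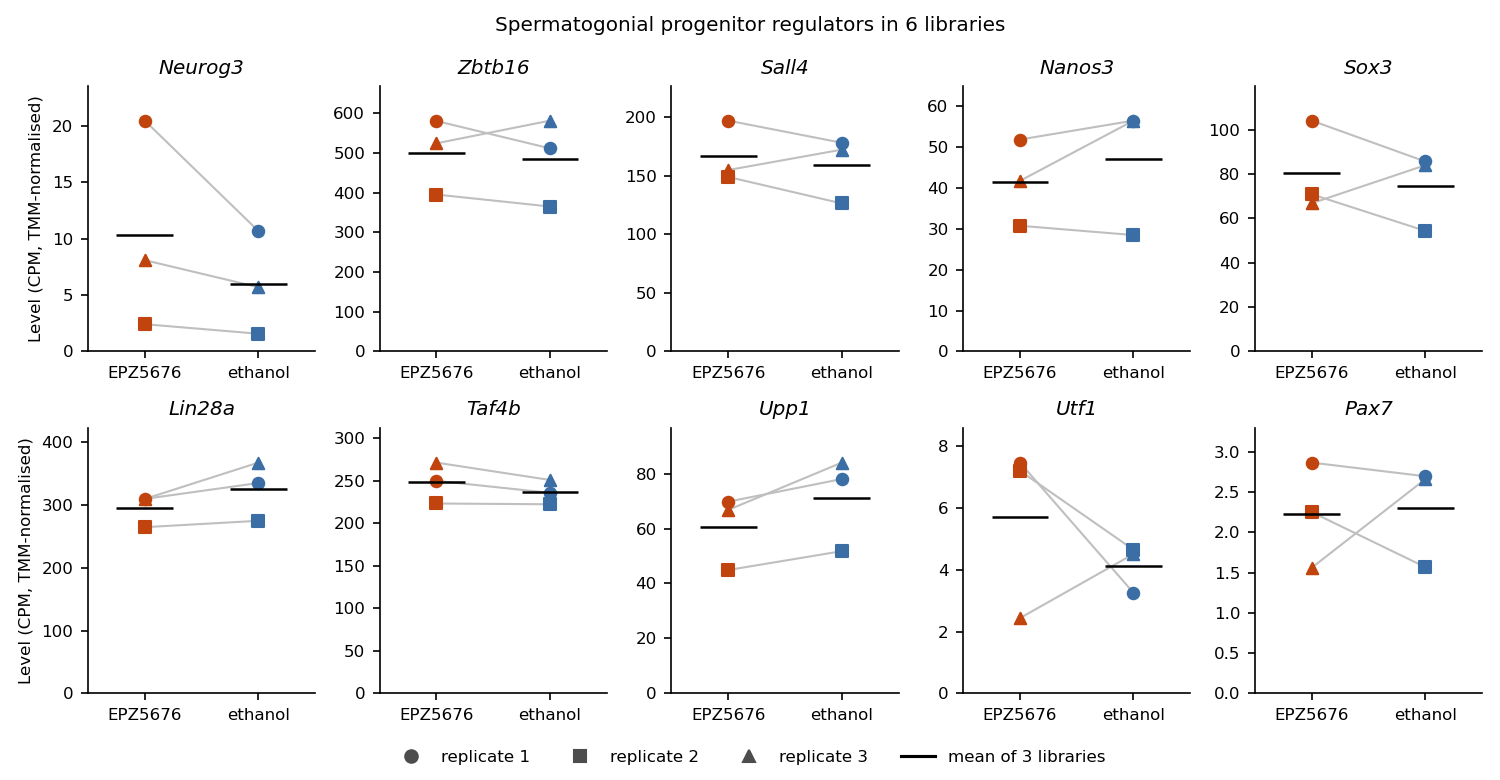
Level of each gene in CPM (vertical axes, each starting at 0) in the 3 EPZ5676 and 3 ethanol libraries; marker shapes give the replicate number, grey lines join libraries with the same number, and black bars are group means. The squares of replicate 2 are lowest in both groups for Neurog3, Zbtb16, Sall4, Nanos3, Lin28a, Taf4b and Upp1, while Neurog3 lies higher in EPZ5676 within each number.

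Neurog3 encodes a basic helix-loop-helix transcription factor, known also for specifying endocrine cells of the pancreas, and in the testis it marks progenitors. It was at 20.5, 2.41 and 8.09 CPM in EPZ5676 replicates 1, 2 and 3, and at 10.7, 1.57 and 5.70 CPM in ethanol replicates 1, 2 and 3. These levels rest on 400, 133 and 166 counts under EPZ5676 and 210, 28 and 120 counts under ethanol. The groups overlapped widely, and in both of them replicate 1 was high and replicate 2 low. Within a replicate number the EPZ5676 library was the higher each time. The ratios of EPZ5676 to ethanol were 1.92, 1.54 and 1.42 in pairs 1, 2 and 3, with exact 95% counting intervals of 1.62 to 2.27, 1.02 to 2.40 and 1.12 to 1.81.

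The log2 fold change of Neurog3 was 0.75 ± 0.78 (SE) without the block (adjusted p = 0.863) and 0.72 ± 0.14 with it. With the block its adjusted p = 0.0637 missed the threshold, although the unadjusted p of 0.000852 ranked 197 of the 14855 genes. The call turned on which libraries and genes entered the fit. Neurog3 was called higher in the blocked fit without pair 2 (adjusted p = 0.00596), without pair 3 (0.0125) and without the filter on low counts (0.0149), and was not called without pair 1 (0.602). Without pair 2 the fit called 795 of 14822 genes, without pair 3 761 of 14912 and without the filter 445 of 20766. It called 0 of 15002 without pair 1, and 97 of 14855 with all pairs and the filter. In the unpaired fit the direction of Neurog3 turned when EPZ5676 replicate 1 was left out, to a log2 fold change of -0.24. Neurog3 overlaps the gene 2010107G23Rik (Fam241b) on the opposite strand in GENCODE M21, and whether counting used the strand is not given. That neighbour was at 19.1, 14.5 and 11.6 CPM in EPZ5676 replicates 1, 2 and 3 and at 19.0, 15.7 and 20.2 CPM in ethanol replicates 1, 2 and 3, and it was not called for the replicate number (adjusted p = 0.384).

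Sox3, an X-linked gene of the SRY-box family whose product acts in progenitors before they express Kit, was at 104, 70.9 and 66.8 CPM in EPZ5676 replicates 1, 2 and 3. In ethanol replicates 1, 2 and 3 it was at 85.7, 54.4 and 84.0 CPM. Pairs 1 and 2 were higher under EPZ5676 (ratios of 1.22 and 1.3) and pair 3 was lower (0.796, 95% counting interval 0.741 to 0.854). Its log2 fold change was 0.11 ± 0.21 (SE), with a 95% interval of -0.38 to 0.59. Its adjusted p was 0.930 without the block and 0.659 with it. Without pair 3 the blocked fit, which called 761 of 14912 genes, called Sox3 higher, at a log2 fold change of 0.33 (adjusted p = 0.0200). Without pair 2 the value was -0.02. The direction was also negative without EPZ5676 replicate 1 (-0.12) and without ethanol replicate 2 (-0.08).

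Zbtb16 encodes PLZF, a zinc finger repressor needed to maintain the stem cell pool in mice. It was at 580, 395 and 524 CPM in EPZ5676 replicates 1, 2 and 3 and at 511, 365 and 581 CPM in ethanol replicates 1, 2 and 3. The groups overlapped, and replicate 2 was the lowest library of each. With counts of 6511 to 21765 per library, counting error was small. The pair ratios were 1.13, 1.08 and 0.902, and none of their 95% counting intervals included 1 (1.10 to 1.17, 1.05 to 1.11 and 0.879 to 0.925). The pairs thus went in opposite directions by more than counting error. On the log2 scale EPZ5676 over ethanol was 0.04 ± 0.19 (SE), and 0.05 ± 0.07 with the block, where the 95% interval allowed 0.925-fold to 1.16-fold. Without EPZ5676 replicate 1 or ethanol replicate 2 it was -0.08 or -0.13, and without pair 1 in the blocked fit -0.02.

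Sall4, whose product binds PLZF and the NuRD corepressor, was at 197, 149 and 155 CPM in EPZ5676 replicates 1, 2 and 3 and at 178, 126 and 172 CPM in ethanol replicates 1, 2 and 3. Its pair ratios were 1.11, 1.18 and 0.899, higher in pairs 1 and 2 and lower in pair 3, as for Zbtb16 and Sox3. On the log2 scale the difference was 0.07 ± 0.15 (SE) without the block and 0.08 ± 0.08 with it, and the blocked 95% interval ran from 0.934-fold to 1.19-fold. The direction turned without EPZ5676 replicate 1 (-0.07), without ethanol replicate 2 (-0.075) and, by -0.00324, without pair 2 in the blocked fit.

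**Figure D2:**
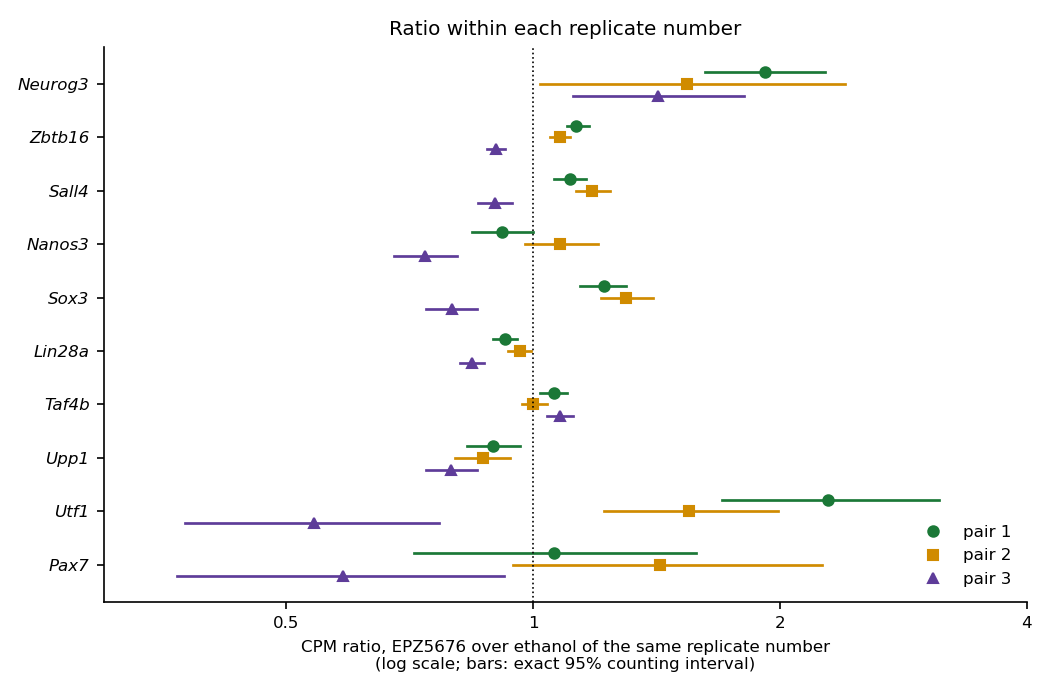
Ratio of the EPZ5676 to the ethanol library of the same replicate number (horizontal log axis) for each gene, with exact 95% counting intervals as bars. Neurog3 is above 1 and Upp1 and Lin28a are below 1 in all 3 pairs, while Zbtb16, Sall4, Sox3, Utf1 and Pax7 are above 1 in pairs 1 and 2 and below 1 in pair 3.

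Nanos3, an RNA-binding protein gene needed for survival of primordial germ cells and kept on in undifferentiated spermatogonia, was at 51.8, 30.7 and 41.7 CPM in EPZ5676 replicates 1, 2 and 3. In ethanol replicates 1, 2 and 3 it was at 56.4, 28.5 and 56.4 CPM. Pairs 1 and 3 had lower levels under EPZ5676 (ratios of 0.918 and 0.739) and pair 2 had a ratio of 1.08, whose 95% counting interval of 0.978 to 1.2 included 1. Without the block its log2 fold change was -0.19 ± 0.28 (SE; adjusted p = 0.902), and with the block -0.15 ± 0.10 (0.458).

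Lin28a, whose product blocks maturation of the let-7 microRNAs, was at 310, 265 and 310 CPM in EPZ5676 replicates 1, 2 and 3 and at 335, 275 and 368 CPM in ethanol replicates 1, 2 and 3. The EPZ5676 library was the lower in each pair, with ratios of 0.924, 0.963 and 0.843. Fitted without the block, the log2 fold change was -0.15 ± 0.12 (SE; adjusted p = 0.806), and with the block -0.14 ± 0.06 (0.252). The blocked 95% interval was 0.830-fold to 0.995-fold. Without ethanol replicate 3 the value was -0.05 and without ethanol replicate 2 it was -0.26, so single control libraries moved its size.

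Upp1 encodes uridine phosphorylase, an enzyme of pyrimidine salvage that is used as a progenitor marker. It was at 69.8, 44.9 and 66.8 CPM in EPZ5676 replicates 1, 2 and 3 and at 78.0, 51.8 and 84.0 CPM in ethanol replicates 1, 2 and 3. As for Lin28a, the EPZ5676 library was the lower in each pair, here with ratios of 0.894, 0.868 and 0.795. Their 95% counting intervals all lay below 1, the highest bound being 0.963. The log2 fold change was -0.24 ± 0.21 (SE) without the block and -0.23 ± 0.07 with it, where the 95% interval was 0.767-fold to 0.944-fold. Adjusted over all genes, Upp1 did not pass with the block (adjusted p = 0.135). Its unblocked value was -0.06 without EPZ5676 replicate 2 and -0.43 without ethanol replicate 2.

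Taf4b encodes a gonad-enriched subunit of the general transcription factor TFIID and varied least among the members. It was at 250, 223 and 271 CPM in EPZ5676 replicates 1, 2 and 3 and at 236, 222 and 251 CPM in ethanol replicates 1, 2 and 3. The groups overlapped, with replicate 2 lowest in both. The pair ratios were 1.06, 1 and 1.08, and the 95% counting interval of pair 2, 0.969 to 1.04, included 1. Its log2 fold change was 0.07 ± 0.09 (SE), and the 95% intervals were 0.911-fold to 1.21-fold without the block and 0.964-fold to 1.14-fold with it. Without EPZ5676 replicate 3 the value was -0.00133.

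Utf1, a chromatin-associated factor shared by pluripotent cells and early spermatogonia, was a low-count gene. It was at 7.47, 7.20 and 2.44 CPM in EPZ5676 replicates 1, 2 and 3 (146, 397 and 50 counts) and at 3.25, 4.65 and 4.51 CPM in ethanol replicates 1, 2 and 3 (64, 83 and 95 counts). The EPZ5676 libraries thus held the high values, in replicates 1 and 2, and also the lowest, in replicate 3. The pair ratios of 2.29, 1.55 and 0.540 had 95% counting intervals of 1.70 to 3.13, 1.22 to 1.99 and 0.376 to 0.769, so the reversal in pair 3 was larger than counting error. The log2 fold change was 0.48 ± 0.38 (SE) without the block (adjusted p = 0.812) and 0.38 ± 0.32 with it (0.551). The blocked fit without pair 3, which called 761 of 14912 genes, called Utf1 higher, at 0.89 (adjusted p = 0.0144). Without pair 1 the value for Utf1 was -0.03.

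Pax7, a paired-box gene best known in muscle satellite cells, had 28 to 124 counts per library. It was at 2.86, 2.25 and 1.56 CPM in EPZ5676 replicates 1, 2 and 3 and at 2.70, 1.57 and 2.66 CPM in ethanol replicates 1, 2 and 3. The ratios were 1.06, 1.43 and 0.587, and the 95% counting intervals of pairs 1 and 2 included 1. Its log2 fold change was -0.06 ± 0.31 (SE), with a 95% interval of 0.592-fold to 1.56-fold that comes from the spread between libraries. The within-group SD of its log2 CPM was 0.427, where counting error alone would give 0.212. The direction turned without EPZ5676 replicate 3 (0.13), without ethanol replicate 1 (0.07) or 3 (0.06), and without pair 3 in the blocked fit (0.30).

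**Figure D3:**
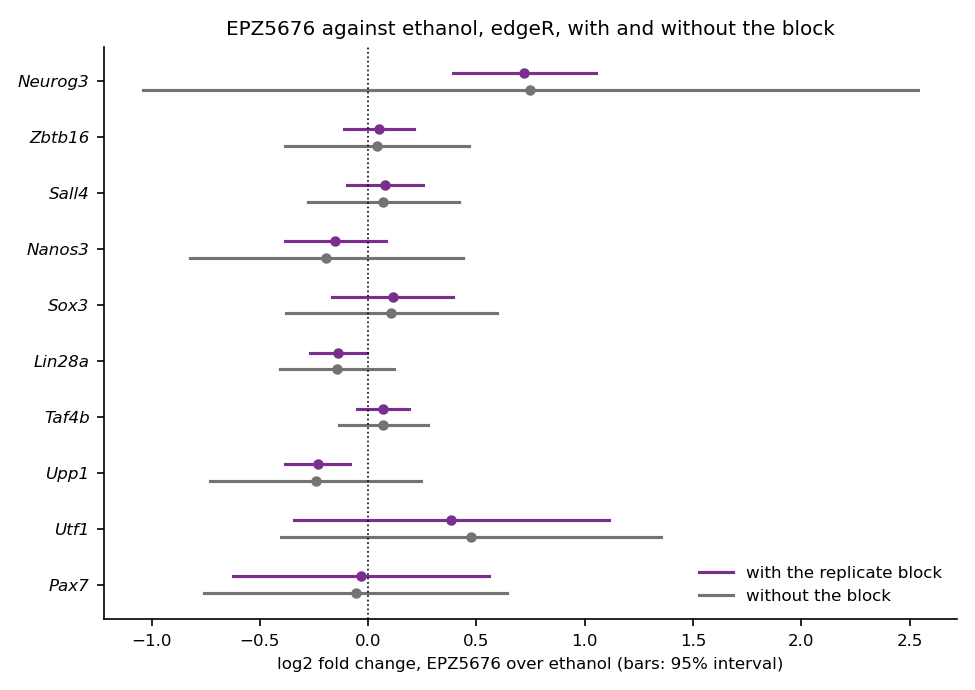
Log2 fold change of EPZ5676 over ethanol (horizontal axis) for each gene, with 95% intervals from the edgeR fits with the replicate block (purple) and without it (grey). The intervals without the block all include 0, and those with it leave out 0 for Neurog3, Upp1 and Lin28a, none of which passed after adjustment over all genes.

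Scaled by the length of the longest RefSeq-matched GENCODE M21 transcript, Zbtb16 and Lin28a had the highest levels of the 10 genes. Zbtb16 was at 97.7 ± 18.6 CPM per kilobase under EPZ5676 and 95 ± 21.6 under ethanol, and Lin28a at 84.1 ± 7.42 and 93.0 ± 13.4 (SD, n = 3 each). The order of these neighbours was not tested. Nanos3 followed at 56.7 ± 14.4 CPM per kilobase under EPZ5676 and 64.5 ± 22.1 under ethanol, close to Upp1 at 47.4 ± 10.6 and 55.8 ± 13.4 and to Taf4b at 48.1 ± 4.67 and 45.8 ± 2.77. Sox3 stood at 39.0 ± 9.91 and 36.2 ± 8.52 and Sall4 at 32.9 ± 5.17 and 31.3 ± 5.59 CPM per kilobase, and the order of these 2 was not tested either. Neurog3 (6.70 ± 5.99 under EPZ5676 and 3.88 ± 2.96 under ethanol) and Utf1 (4.65 ± 2.31 and 3.37 ± 0.626) were far below them, and Pax7 was lowest at 0.380 ± 0.112 and 0.394 ± 0.109. The annotation behind the counts is not given, so these lengths are approximate.

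The members varied more with the replicate number than with the treatment. In a test of the replicate number in the blocked edgeR fit, which has 2 degrees of freedom and rests on 2 libraries per number, 6 of 10 members were called: Neurog3, Upp1, Nanos3, Zbtb16, Lin28a and Sall4. Over all genes tested, 11.9% were called in this test. Neurog3 had an adjusted p = 0.000923 and ranked 3 of 14855 genes by p. Upp1, Nanos3, Zbtb16, Lin28a and Sall4 followed at adjusted p of 0.00601, 0.0115, 0.0127, 0.0390 and 0.0403. Sox3 (0.0707), Taf4b (0.102), Utf1 (0.396) and Pax7 (0.479) were not called.

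The differences with the replicate number mostly lay in replicate 2. The means of the replicate 2 libraries were below those of the other 4 for 9 members, Utf1 being the exception, with a median difference of -0.39 in log2 CPM. Over all genes tested 48.9% were lower in replicate 2, and the median difference was 0.01. Relative to the mean of replicates 1 and 3 of the same treatment, Neurog3 in replicate 2 was at 0.169 of it under EPZ5676 and 0.192 under ethanol. The corresponding values were 0.657 and 0.504 for Nanos3, 0.658 and 0.639 for Upp1, and 0.715 and 0.668 for Zbtb16. Levels of Lin28a were 0.855 and 0.783 of it, and of Sall4 0.847 and 0.721. Pan germ cell genes had replicate 2 sums of 4964 CPM under EPZ5676 and 4987 CPM under ethanol against 5064 to 5453 CPM in the other 4, while fibroblast sums were higher. The part of fibroblast RNA in these differences was not tested.

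**Figure D4:**
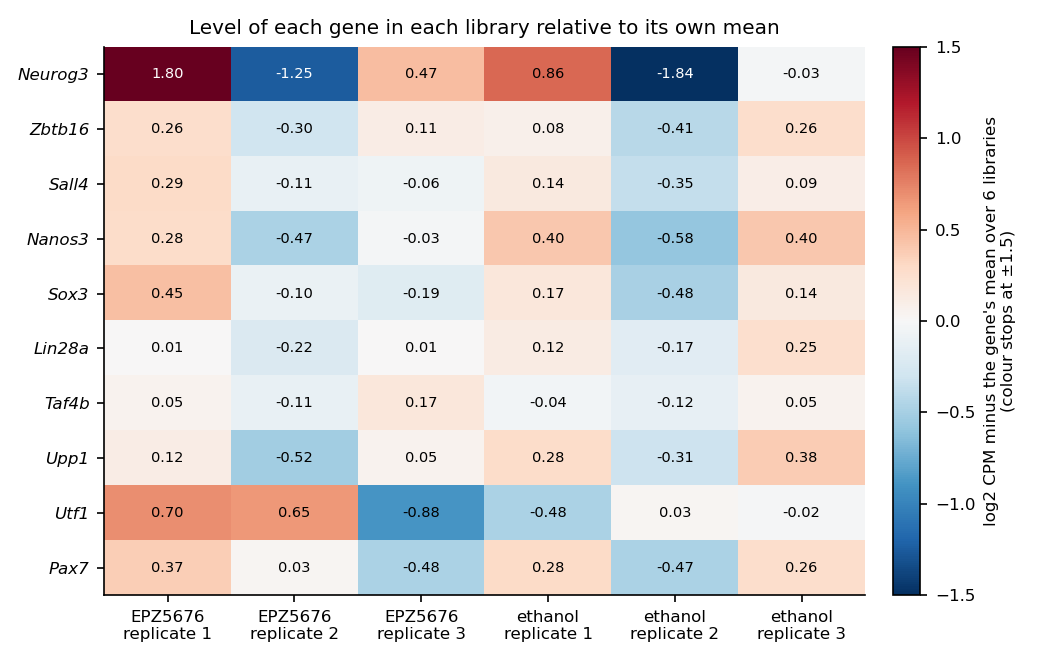
Log2 CPM of each gene in each library minus that gene's mean over the 6 libraries (colour and printed value). The columns of replicate 2 are below 0 for all genes but Utf1 and, under EPZ5676, Pax7; for Neurog3 the lowest values are in replicate 2 and the highest in replicate 1 of both groups.

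Leaving out libraries showed which members this rested on. Without pair 2, 98 genes (0.661% of those tested) and 1 member were called for the replicate number, and that member was Neurog3 (adjusted p = 0.000906), whose replicates 1 and 3 differed as well. Without pair 1 the called members were Zbtb16, Neurog3, Nanos3 and Upp1, against 6.61% of genes, and without EPZ5676 replicate 1 they were Neurog3 and Upp1, against 2.63%. Without ethanol replicate 1, Zbtb16, Neurog3, Nanos3 and Upp1 were called, against 5.51% of genes. There were more calls without the other libraries: 7 members without EPZ5676 replicate 2 (22.5% of genes), EPZ5676 replicate 3 (20%) or pair 3 (20%), and 8 without ethanol replicate 2 (17.1%) or ethanol replicate 3 (27.4%). Neurog3 and Upp1 were called in each fit that kept a replicate 2 library, and Neurog3 in all.

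Split by sums of squares of log2 CPM, with 2 degrees of freedom for the number and 1 for the treatment, the replicate number held 91.9% of the variation of Neurog3 and the treatment 7.51%. For Zbtb16 the shares were 91.6% and 0.891%, for Sall4 80.0% and 3.48%, for Nanos3 88.8% and 3.46%, and for Upp1 85.4% and 13.3%. Lin28a had the highest share with treatment, 18.6%, beside 75.1% with the number. The medians over all genes tested were 54.5% for the number and 14.4% for the treatment. In Utf1 and Pax7 the larger share, 58.2% and 54.3%, went with neither. The within-group SD of log2 CPM was 1.45 for Neurog3, larger than in 99.9% of genes tested, and 0.117 for Taf4b, larger than in 28.5%; the counting error of Neurog3 alone would give 0.150.

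Other genes of undifferentiated spermatogonia behaved unevenly. Of 19 tested genes of a list without the members, 0 were called for treatment in either fit. The share of all genes tested was 0% without the block and 0.653% with it. The list had a median log2 fold change of -0.11, against -0.01 over all genes tested. The extremes were Shisa6, a membrane protein gene of a stem cell subset, at 0.685 ± 0.0215 CPM under EPZ5676 and 0.334 ± 0.182 CPM under ethanol, and Cdh1, the E-cadherin gene, at 12.8 ± 2.41 and 18.2 ± 1.41 CPM (SD, n = 3 each). Their adjusted p was 0.650 and 0.596. For the replicate number 4 of the 19 were called, against 11.9% of all genes tested. By direction, 11 of the 19 were lower in replicate 2 and 8 were higher, with a median log2 difference of -0.05. Nanos2, a stem cell relative of Nanos3, and Ddit4, an mTORC1 inhibitor gene that PLZF activates, were low in replicate 2. Nanos2 was at 5.91 CPM under EPZ5676 and 3.19 CPM under ethanol in replicate 2, against 12.7 to 14.6 CPM in the other 4 libraries. Bcl6b, a GDNF-induced repressor gene, and Plvap were high there, Bcl6b at 118 and 114 CPM against 58.3 to 76.9 CPM.

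Genes of differentiating spermatogonia were mostly higher in replicate 2. Of 12 tested genes, 10 were higher in the replicate 2 libraries than in the other 4, with a median log2 difference of 0.33, against 51.1% of all genes tested and a median of 0.01. For the replicate number 5 were called, against 11.9% of all genes tested. Summed fibroblast markers, at 1767 CPM under EPZ5676 and 2286 CPM under ethanol in replicate 2, were higher in the same libraries, and their part in these values was not tested. Stra8, a gene induced by retinoic acid, was at 260 CPM under EPZ5676 and 281 CPM under ethanol in replicate 2, against 145 to 198 CPM elsewhere. Dmrtb1, which acts at the turn from mitosis to meiosis, was at 13.3 and 11.9 CPM in replicate 2, against 4.84 to 7.93 CPM. Ccnd2, a cyclin gene, and Crabp1, a retinoic acid-binding protein gene, were also higher there, and Dnmt3b, a DNA methyltransferase gene, was lower. For treatment, 0 of the 12 were called in either fit, against 0% of all genes tested without the block and 0.653% with it. This list had a median log2 fold change of -0.03. Its extremes were Dmrtb1 at 0.31 ± 0.36 (SE) and Ngfr, a neurotrophin receptor gene, at -0.51 ± 0.30.

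**Figure D5:**
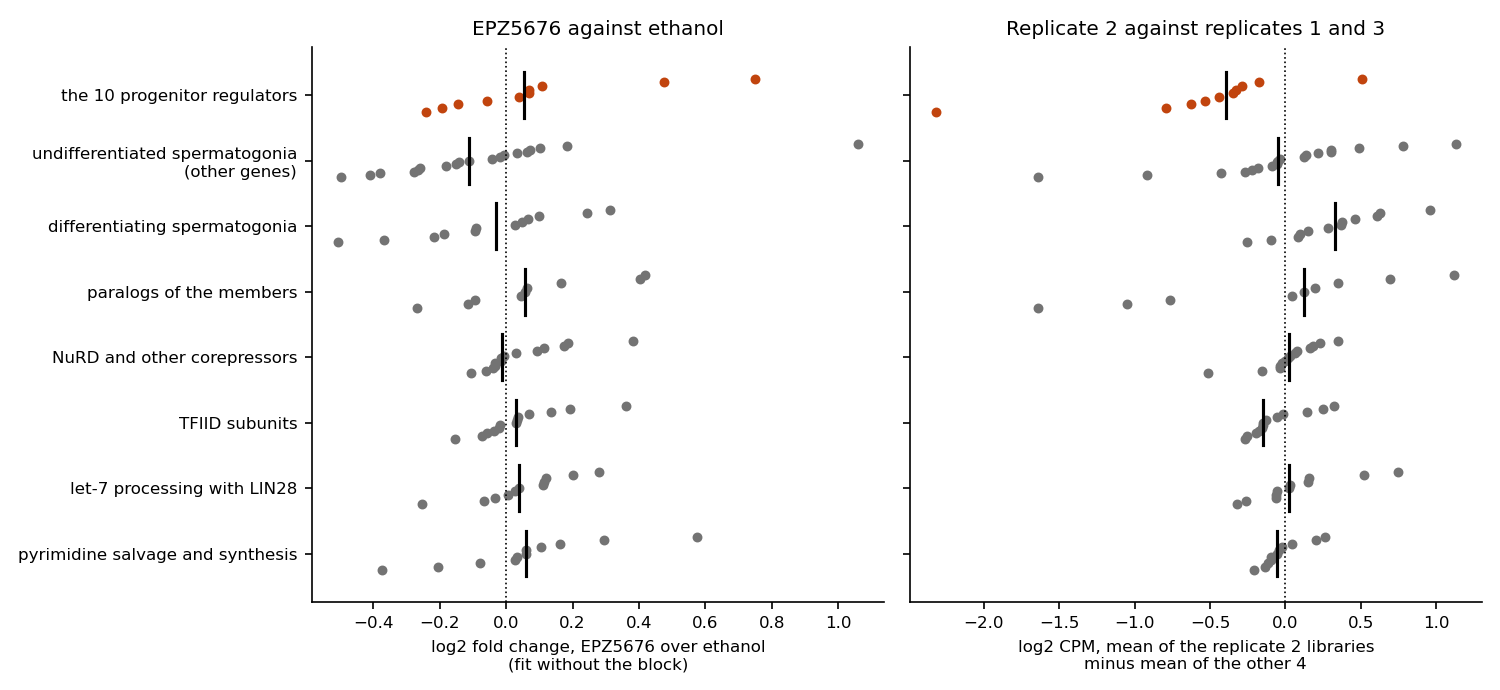
Left, log2 fold change of EPZ5676 over ethanol without the block; right, mean log2 CPM of the replicate 2 libraries minus that of the other 4. Each point is a gene, black bars are medians, and rows are the 10 genes and 7 lists of related genes; medians at left lie near 0, and at right the 10 genes have a median of -0.39 and the differentiating genes of 0.33.

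Among 9 tested paralogs of the members, 0 were called for treatment without the block and 1 with it, against 0% and 0.653% of all genes tested. Taf4, the ubiquitous counterpart of Taf4b, was at 61.8 ± 2.41 CPM under EPZ5676 and 46.8 ± 3.72 CPM under ethanol (SD, n = 3 each). Its groups did not overlap, as in 14.9% of all genes tested. It rose in the blocked fit, by 0.40 ± 0.07 (SE) on the log2 scale (adjusted p = 0.0485), and was not called without the block (0.507). Taf4b itself had 0.07, and the difference between the paralogs was not tested. The median over these 9 was 0.06. Its extremes were Sox2, of the same SRY-box subgroup as Sox3, at 0.42 ± 0.32, and Zbtb32, a relative of Zbtb16, at -0.27 ± 0.12. For the replicate number 4 of the 9 were called, against the same 11.9%: Sall1 and Nanos2 lower in replicate 2, and Sall3 and Nanos1 higher. Sall1 was at 93.9 CPM under EPZ5676 and 95.3 CPM under ethanol in replicate 2, against 165 to 213 CPM in the other 4. Neurog1, Neurog2, Sox1, Upp2 and Pax3 had 0 to 23 counts in a library and were not tested.

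Of 14 corepressor genes that work with SALL4 and PLZF, 0 were called for treatment in either fit. The share of all genes tested was 0% without the block and 0.653% with it. The median log2 fold change of the 14 was -0.01. Mta1, a NuRD subunit gene, was at 89.3 ± 3.87 CPM under EPZ5676 and 68.5 ± 6.16 CPM under ethanol (SD, n = 3 each). Its groups did not overlap, as in 14.9% of all genes tested, and its adjusted p was 0.532, or 0.0518 with the block. Mta1 had the highest log2 fold change of the 14, and choosing an extreme favours groups that lie apart. Hdac1, a histone deacetylase gene, had the lowest value, -0.11 ± 0.11 (SE). Of 13 further TFIID subunit genes 0 were called in either fit, against the same shares of all genes tested. Their median was 0.03, with extremes at Taf10 (0.36 ± 0.11) and Taf13 (-0.15 ± 0.11). Taf10 was at 30.2 ± 1.3 CPM under EPZ5676 and 23.5 ± 1.97 CPM under ethanol, and Taf13 at 16.6 ± 0.437 and 18.4 ± 0.736 CPM (SD, n = 3 each). The groups did not overlap for either, against the same 14.9% of all genes tested, but both genes were chosen as extremes of their list. For the replicate number, 1 of the 14 corepressor genes, Mta3, and 0 of the 13 TFIID genes were called, against 11.9% of all genes tested. In replicate 2, 10 TFIID genes were lower and 3 higher than in the other libraries, with a median log2 difference of -0.15.

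Of 11 genes of let-7 processing and its targets, 0 were called for treatment in either fit, with a median log2 fold change of 0.04. The share of all genes tested was 0% without the block and 0.653% with it. Trim71, a let-7 target gene, was at 318 ± 60.8 CPM under EPZ5676 and 262 ± 30.1 CPM under ethanol. Igf2bp1, another, was at 287 ± 8.26 and 341 ± 12.7 CPM (SD, n = 3 each), and its groups did not overlap, as in 14.9% of all genes tested. It was named as the lowest of its list, and choosing an extreme favours groups that lie apart. With the block, the adjusted p of Trim71 and Igf2bp1 was 0.107 and 0.0775. For the replicate number 2 of the 11, Trim71 and Ago2, were called, against 11.9% of all genes tested. Of 11 tested genes of pyrimidine salvage and synthesis, the pathway of Upp1, 0 were called for treatment in either fit. For the replicate number, too, 0 were called. The shares of all genes tested were again 0% and 0.653% for treatment and 11.9% for the number. This list had a median of 0.06. Its extremes were Uprt, at 1.91 ± 0.104 CPM under EPZ5676 and 1.28 ± 0.0870 CPM under ethanol, and Cda, the cytidine deaminase gene, at 3.29 ± 0.264 and 4.25 ± 0.330 CPM (SD, n = 3 each).

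The genes whose log2 CPM followed Neurog3 most closely over the 6 libraries, among 10685 with a mean of at least 5 CPM, were Cox15, Cubn and Zfp846, with Pearson's r of 0.997, 0.994 and 0.994. Their own range was small: Cox15 ran from 29.1 to 37.1 CPM where Neurog3 ran from 1.57 to 20.5 CPM. Zbtb16 was followed most closely by Olfml2b, Hacl1 and Iqcg (0.994, 0.994 and 0.992), and Sall4 by Pfdn6, Alkbh7 and Ddx49 (0.996, 0.994 and 0.993). All points share the same 6 libraries, of which the replicate 2 libraries stood apart, and these are the 3 highest of 10685 values for each gene.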

How the data were processed

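RNA was extracted from the cultures and made into libraries with a stranded mRNA kit, per the labels' protocols. The authors deposited raw counts for 24495 gene symbols. The build mm9 and the tools Bowtie, STAR, featureCounts and edgeR are named, without versions, per the submitters' processing notes. Which annotation was counted, and how strand and multiply aligned reads were handled, is not given in the sources used here. A second deposited table, on repeat families, was not used here.

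Counts were analysed in R 4.3.3 with edgeR 4.0.16 (filterByExpr, TMM, glmQLFit and glmQLFTest, 2-sided, Benjamini-Hochberg over 14855 genes, threshold 0.05), and with limma 3.58.1 (voom) and DESeq2 1.42.0 as alternatives. SE is the fold change over the root of F, and 95% intervals use the fitted degrees of freedom. Ratios within pairs have exact Clopper-Pearson intervals, which cover counting error only. Log2 CPM used a prior count of 2. Sums of squares, principal components and r were computed on it. Fits were run on simulated data with known changes to check the code. The simulated treatment data held no difference between replicate numbers, so this check does not measure error rates or power in these libraries.

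Same-numbered libraries deviated together from their group means, with correlations over genes of 0.411, 0.614 and 0.335 for numbers 1, 2 and 3, all over 0.1. Across numbers, EPZ5676 replicate 1 with ethanol replicate 3 gave 0.278, and EPZ5676 replicate 3 with ethanol replicate 1 gave 0.149. Each replicate 2 library gave negative values with libraries of other numbers. Deviations from a group mean cancel within the group, so these negative values partly follow from the 0.614 and are not separate support. The value of 0.614 sets number 2 apart, but the check separates numbers 1 and 3 only weakly. The pairing of numbers 1 and 3 rests mostly on the labels' numbers. No library was a copy of another: the smallest chi-square per degree of freedom over 15 pairs was 3.64.

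The members, the 7 lists of related genes and the 7 marker lists were chosen with earlier results of these data known. From each list the text names genes called in either treatment fit and the highest and lowest log2 fold change, and for Neurog3, Zbtb16 and Sall4 the 3 genes with the highest r; genes called for the replicate number, a test added after seeing the data, and marker genes are named after their values were seen. Promoter sequences are from RefSeq on GRCm38.p6.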

Additional observations from a re-analysis of the deposited data

How the results depend on the processing

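For treatment, 0 members passed in any unpaired fit (DESeq2, limma-voom, other scaling, other filters, without each library, without both replicate 2 libraries). Over all genes, calls numbered 97 with the replicate block, 50 with DESeq2, 293 with DESeq2 and the block, 10 without both replicate 2 libraries, and, in alternatives chosen after seeing the data, 193 with library totals and the block, 163 with DESeq2 size factors and the block and 445 with the block and no filter, where 1 member, Neurog3, was called. limma-voom called 0 genes (1122 before adjustment, at p under 0.05). Leaving out each library or pair gave 0 to 795 genes and 0 to 3 members: Neurog3, Sox3 and Utf1 without pair 3, Neurog3 without pair 2. Those blocked fits called 761 of 14912 genes without pair 3 and 795 of 14822 without pair 2. For the replicate number, leaving out each library or pair gave 98 to 4127 genes (0.661% to 27.4% of those tested) and 1 to 8 members. Scaling and filters gave 6 or 7 members, against 12.3% to 12.8% of genes.

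Over those fits, log2 fold changes spanned -0.13 to 0.19 for Zbtb16, for Sall4 -0.075 to 0.193, for Neurog3 -0.24 to 1.46, for Sox3 -0.12 to 0.33, for Taf4b -0.00133 to 0.14, for Utf1 -0.0331 to 0.892 and for Pax7 -0.30 to 0.30. Nanos3, Lin28a and Upp1 stayed negative in all 21 alternatives, at -0.46 to -0.00832, -0.258 to -0.0497 and -0.433 to -0.0627. The alternatives reuse the same 6 libraries, so an unchanged sign is not independent support. The cause of these moves in log2 fold change was not tested. A blocked fit without a pair has 1 residual degree of freedom, and in tests of the replicate number a number left with 1 library is assumed to vary like the others. Counting error alone would give SDs of log2 CPM of 0.150 for Neurog3, 0.153 for Utf1 and 0.212 for Pax7. Their within-group SDs were 1.45, 0.667 and 0.427, in the same order. The part of depth in this spread was not tested.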
